A study of Mus musculus with 7 samples.

Results

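Interleukin-6 (IL-6) family cytokines were described in the mouse extrahepatic bile duct (EHBD) through 10 genes. These were the cytokines Il6, Il11, Lif, Osm and Clcf1, the receptor chains Il6st, Il6ra, Osmr and Lifr, and the inhibitor Socs3. Each was taken from the gene count table as the Ensembl identifier that GENCODE assigns to its symbol, so they were 10 of 56065 genes, and all 10 were among the 25209 genes tested. Bulk RNA-Seq was performed on whole EHBD tissue of adult wild-type C57BL/6 mice (C57BL/6J per the study's methods) in which the distal duct had been tied off near the duodenum 48 hours earlier (bile duct ligation, BDL) or which had received a sham operation. Both groups underwent a laparotomy. There were 4 BDL libraries (replicates 1 and 2 from males, 3 and 4 from females) and 3 sham libraries (replicate 1 from a female, 2 and 3 from males). The study counts its 48-hour samples as mice, whereas the labels do not say which animal gave each library. The p-values weigh the difference between groups against the variation between these libraries.

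Cytokines of this family signal through receptor complexes that contain gp130, the product of Il6st. IL-6 first binds the IL-6 receptor alpha chain (Il6ra), whereas leukemia inhibitory factor (Lif) brings the chain encoded by Lifr together with gp130 and oncostatin M (Osm) in mice brings the chain encoded by Osmr together with gp130. The complexes activate Janus kinases and the transcription factor STAT3, which switches on Socs3, an inhibitor that acts back on gp130. IL-6 is a known growth factor of cholangiocytes, the epithelial cells that line bile ducts, and drives the acute phase response of hepatocytes.

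Library totals ranged from 53076805 to 58698230 counts in BDL libraries and from 48882420 to 61291821 counts in sham libraries. All 7 cholangiocyte markers were detected in every library, with summed levels of 8255 to 9727 CPM (counts scaled to a common library size) in BDL libraries and 4120 to 5308 CPM in sham libraries. The 7 did not move together, since 3 rose, Sox9 fell (edgeR, adjusted p = 0.0393) and 3 did not pass. Spp1, which did not pass, had the highest level, at a mean of 4476 CPM in BDL libraries and 1969 CPM in sham libraries. Transcripts of neighbouring organs were present in unequal amounts. The 16 pancreatic acinar markers took 0.134%, 5.13%, 6.33% and 0.00224% of the counts of BDL replicates 1 to 4, and 11.2%, 5.56% and 24.4% of those of sham replicates 1 to 3. The 12 hepatocyte markers took 0.804%, 0.00796%, 0.012% and 1.4% of the counts of BDL replicates 1 to 4, against 0.0501% to 0.148% in sham libraries. No gene of either list passed the test between BDL and sham (edgeR, with 1 acinar and 0 hepatocyte markers at an unadjusted p under 0.05). In whole tissue, fewer cells of a type and less RNA per cell cannot be told apart.

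Of the 10 genes, 3 were higher in BDL EHBDs and 0 were lower at an adjusted p under 0.05 (edgeR quasi-likelihood test with sex in the model, adjusted over all genes tested). At an unadjusted p under 0.05 the counts were 4 higher and 1 lower, and DESeq2 at an adjusted p under 0.05 called the same numbers. The 3 were the cytokine Il11, the receptor chain Osmr and the inhibitor Socs3. Of all genes tested, 11.8% were higher and 11% were lower, 22.8% in all. In 4 of the 10 genes (Il6, Il11, Osmr and Socs3) every BDL library lay above every sham library, which was the case for 18.7% of all genes, and in 0 of the 10 did every BDL library lie below, the case for 18% of all genes. The groups of all genes were free of overlap in either direction in 36.6%. The median log2 fold change was 0.58 over the 10 genes and -0.01 over all genes tested.

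**Figure D1:**
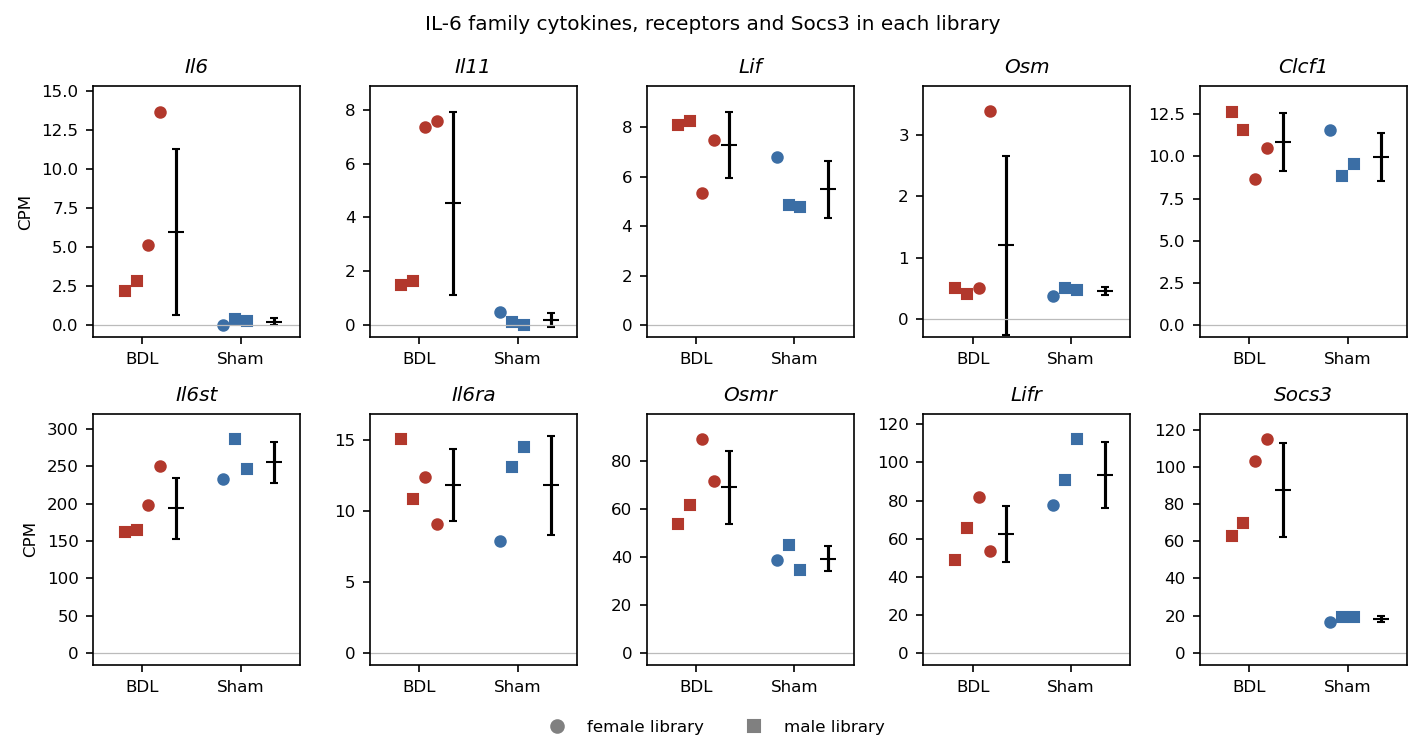
Level of each of the 10 genes in every library, in CPM on linear axes of differing range, with BDL libraries in red at the left of each panel and sham libraries in blue at the right. Circles are female and squares male libraries, and the bars beside them give mean ± SD (n = 4 BDL and n = 3 sham). The groups do not overlap for Il6, Il11, Osmr and Socs3, and 1 BDL library stands apart for Osm at 3.39 CPM.

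The sequence upstream of the annotated start is shown for Socs3, Il6 and Il11, 3 of the 4 genes whose groups did not overlap, because each holds a match to a motif of a factor family known to act in inflammation. The 250 bases before each start were taken from RefSeq (GRCm38.p6, a different build from that of the gene coordinates given elsewhere, which are GRCm39) and are printed 5′ to 3′ along the gene's strand, with motif matches in capitals. The Socs3 window lies at chr11:117969367-117969616 on the minus strand, the Il6 window at chr5:30012864-30013113 on the plus strand, and the second of the Il11 windows at chr7:4778142-4778391 on the minus strand.
Socs3: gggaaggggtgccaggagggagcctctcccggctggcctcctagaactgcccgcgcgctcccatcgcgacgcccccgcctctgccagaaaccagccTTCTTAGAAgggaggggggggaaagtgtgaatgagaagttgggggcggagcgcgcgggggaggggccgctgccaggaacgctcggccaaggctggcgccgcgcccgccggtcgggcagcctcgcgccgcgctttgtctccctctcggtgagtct
Il6: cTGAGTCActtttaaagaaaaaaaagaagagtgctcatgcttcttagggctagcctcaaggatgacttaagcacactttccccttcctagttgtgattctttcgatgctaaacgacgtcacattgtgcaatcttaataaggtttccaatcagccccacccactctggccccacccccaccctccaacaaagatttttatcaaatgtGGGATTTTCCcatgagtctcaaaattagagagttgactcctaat
Il11: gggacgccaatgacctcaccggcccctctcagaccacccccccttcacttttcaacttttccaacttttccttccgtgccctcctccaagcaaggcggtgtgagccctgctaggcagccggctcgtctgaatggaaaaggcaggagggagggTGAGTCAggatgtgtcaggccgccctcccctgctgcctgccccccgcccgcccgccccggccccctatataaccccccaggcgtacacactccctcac

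Motifs were searched on both strands. TTCNNNGAA, bound by STAT factors, had 1 match among the windows of the 10 genes, TTCTTAGAA in Socs3 with its first base 154 bases before the start, and was present in 7.02% of all 32851 RefSeq windows. TGANTCA, bound by AP-1, matched in Il6 (first base at -249), in Il11 (at -98) and in Lif (TGACTCA, at -228), against 6.75% of all windows. The NF-κB motif (GGGA, any base, then TTTCC) matched in Il6 as GGGATTTTCC at -44, against 0.356% of all windows. No match was found in the windows of Il6st, Il6ra, Osmr and Lifr or in the first Il11 window. RefSeq windows were matched for 8 of the 10 genes, without Osm and Clcf1. A match describes these letters only, and binding was not measured.

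Among the cytokines, Il11 rose after BDL. Il11 (ENSMUSG00000004371, chromosome 7, 4775372 to 4785858, minus strand, GRCm39) encodes interleukin-11, which acts through its own alpha chain and gp130 and is known for its effects on stromal cells. Its level was 1.51, 1.63, 7.36 and 7.59 CPM in BDL replicates 1 to 4, against 0.501, 0.109 and 0 CPM in sham replicates 1 to 3. The groups did not overlap, and the BDL libraries fell into a lower male pair and a higher female pair. The 0 in sham replicate 3 allows a level of up to 0.0805 CPM, the equivalent of 3 counts, where such limits cover counting error only. The log2 fold change was 4.26 (SE 0.68, adjusted p = 0.00548), and the reads behind it were 1068 counts over the BDL libraries and 33 over the sham libraries.

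Il6 (ENSMUSG00000025746, chromosome 5, 30218112 to 30224979, plus strand, GRCm39) did not pass the test, although its groups did not overlap. Its level was 2.17, 2.81, 5.12 and 13.7 CPM in BDL replicates 1 to 4, against 0, 0.420 and 0.268 CPM in sham replicates 1 to 3. The 4 BDL libraries spread widely, with replicate 4 highest, and the 0 in sham replicate 1 allows up to 0.0578 CPM. The log2 fold change was 4.24 (SE 1.32, adjusted p = 0.0569). Without sham replicate 1 it was 2.83 and passed (adjusted p = 0.0294), and it also passed under 5 other alternatives, among them DESeq2 (adjusted p = 0.00698) and limma-voom (adjusted p = 0.0407). Over all 17 alternatives the adjusted p ran from 0.000889 to 0.14.

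The other 3 cytokines did not pass. Lif, whose product binds the chain encoded by Lifr, was at 8.08, 8.25, 5.35 and 7.5 CPM in BDL replicates 1 to 4, against 6.82, 4.86 and 4.78 CPM in sham replicates 1 to 3, and the ranges overlapped (log2 fold change 0.41, SE 0.27, adjusted p = 0.303). Clcf1, which encodes a cytokine that signals through the ciliary neurotrophic factor receptor, was at 10.8 ± 1.70 CPM in BDL libraries (SD, n = 4) and 9.97 ± 1.42 CPM in sham libraries (SD, n = 3), and the log2 fold change was 0.13 with an SE of 0.22 (adjusted p = 0.709). Lif and Osm are neighbours on chromosome 11, with Osm at 4186420 to 4191026 and Lif at 4207557 to 4222514 (both plus strand, GRCm39).

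Osm was set apart by a single library. It encodes oncostatin M, a product chiefly of leukocytes, neutrophils and macrophages among them. Its level was 0.512, 0.403, 0.510 and 3.39 CPM in BDL replicates 1 to 4, against 0.385, 0.513 and 0.483 CPM in sham replicates 1 to 3. BDL replicates 1 to 3 lay within the sham range, and BDL replicate 4 lay far above it. The log2 fold change was 0.76 (SE 0.87, adjusted p = 0.565).

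The library with the highest Osm also had the highest summed level of neutrophil markers, although not the highest Mmp9. The same library held the largest share of hepatocyte markers (1.4%) and the smallest of acinar markers (0.00224%). Sham replicate 2 had the next highest summed neutrophil level, 64.3 CPM, with Osm at 0.513 CPM. Of the 8 neutrophil markers, 5 rose after BDL, 0 fell and 3 did not pass. Mmp9, which did not pass, had a mean of 7.18 CPM in BDL libraries and 19.5 CPM in sham libraries. The summed level of the 8 was 38.3 to 172 CPM in BDL libraries, with BDL replicate 4 highest, against 16.8 to 64.3 CPM in sham libraries. S100a8, an abundant neutrophil calcium-binding protein gene, was at 11.5, 9.22, 14.2 and 60.7 CPM in BDL replicates 1 to 4, against 1.48, 3.08 and 1.64 CPM in sham replicates 1 to 3. Csf3r, the neutrophil growth factor receptor gene, was at 2.16 to 3.34 CPM in BDL libraries and 2.18 to 3.14 CPM in sham libraries, and Ngp was at 0 in sham replicates 2 and 3. Of the 8 macrophage and monocyte markers, 1 rose and 4 fell, with summed levels of 469.9 to 621 CPM in BDL libraries and 707 to 1683 CPM in sham libraries. Among 3 general leukocyte markers, 0 rose and 1 fell, Ptprc (log2 fold change -2.295, adjusted p = 0.00307). Their summed level was 39.1 to 72.0 CPM in BDL libraries and 54.0 to 117 CPM in sham libraries. The part of these cells in the level of Osm was not tested.

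**Figure D2:**
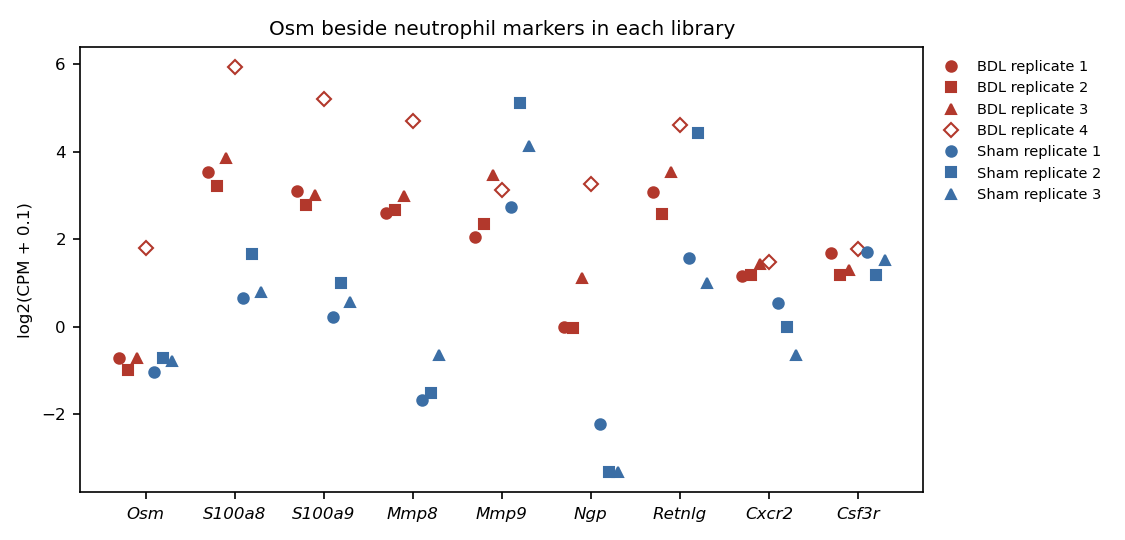
Osm and the 8 neutrophil markers in each library, as log2(CPM + 0.1), with the 4 BDL libraries in red at the left of each gene and the 3 sham libraries in blue at the right. BDL replicate 4, the open diamond, is highest for Osm at 3.39 CPM and for S100a8 at 60.7 CPM, whereas Csf3r spans 2.16 to 3.34 CPM in BDL libraries and 2.18 to 3.14 CPM in sham libraries.

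Among the receptors, Osmr rose after BDL while the other 3 chains did not pass. Osmr (ENSMUSG00000022146, chromosome 15, 6843053 to 6904450, minus strand, GRCm39) encodes the oncostatin M receptor chain. Its level was 53.7, 61.4, 88.8 and 71.7 CPM in BDL replicates 1 to 4, against 38.5, 44.7 and 34.5 CPM in sham replicates 1 to 3. The groups did not overlap, and the lowest BDL library was a male library. The log2 fold change was 0.74 (SE 0.19, adjusted p = 0.0289). The call was close to the threshold, since it was lost without BDL replicate 2 (adjusted p = 0.0853), without sham replicate 1 (adjusted p = 0.135) and without sham replicate 3 (adjusted p = 0.0874), with log2 fold changes of 0.75, 0.54 and 0.69 in that order.

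Lifr, on the same chromosome 15 at 7120095 to 7226970 (plus strand, GRCm39), encodes the chain that pairs with gp130 for leukemia inhibitory factor. Its level was 48.5, 65.6, 81.6 and 53.3 CPM in BDL replicates 1 to 4, against 77.7, 91.0 and 112 CPM in sham replicates 1 to 3. The ranges overlapped through BDL replicate 3, and the log2 fold change was -0.59 (SE 0.24, adjusted p = 0.116). It passed without BDL replicate 3 (log2 fold change -0.75, adjusted p = 0.0392) and in DESeq2 (log2 fold change -0.62, adjusted p = 0.0409). The change was smallest without BDL replicates 1 and 4 together (log2 fold change -0.336, adjusted p = 0.407). Over all 17 alternatives the log2 fold change ran from -0.845 to -0.336. Acinar shares, given above, differed between these libraries, and their part in the level of Lifr was not tested.

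Il6st, the shared gp130 chain, was at 162, 165, 198 and 250 CPM in BDL replicates 1 to 4, against 233, 286 and 247 CPM in sham replicates 1 to 3. BDL replicate 4 lay within the sham range and the other 3 below it, and the log2 fold change was -0.45 (SE 0.21, adjusted p = 0.162). Il6ra, the ligand-binding chain for IL-6, was at 11.8 ± 2.54 CPM in BDL libraries (SD, n = 4) and 11.8 ± 3.49 CPM in sham libraries (SD, n = 3), and the log2 fold change was 0.12 with an SE of 0.24 (adjusted p = 0.75).

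Ratios between receptor genes do not depend on how libraries are scaled, so they were computed from the counts of each library. They were chosen after the values had been seen and are given as a description. Osmr over Lifr was 1.11, 0.937, 1.09 and 1.35 in BDL replicates 1 to 4, against 0.496, 0.492 and 0.308 in sham replicates 1 to 3. Osmr over Il6st was 0.332, 0.372, 0.448 and 0.287 in BDL replicates 1 to 4, against 0.165, 0.156 and 0.14 in sham replicates 1 to 3. Both ratios were therefore higher in every BDL library than in any sham library. Lifr over Il6st overlapped, at 0.331 ± 0.0927 in BDL libraries (SD, n = 4) and 0.369 ± 0.0743 in sham libraries (SD, n = 3).

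**Figure D3:**
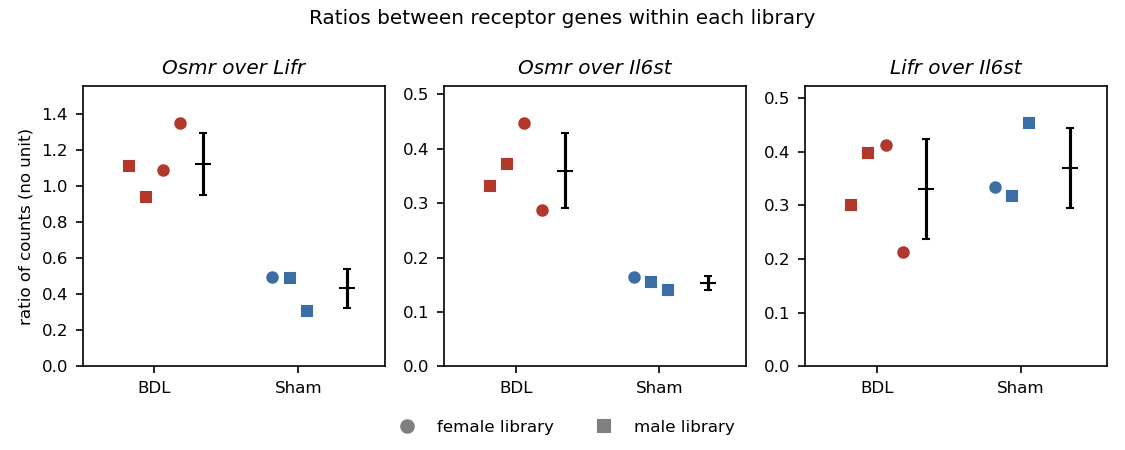
Ratio of counts of Osmr over Lifr, Osmr over Il6st and Lifr over Il6st within each library, with no unit, BDL in red at the left and sham in blue at the right of each panel, circles for female and squares for male libraries, and bars for mean ± SD (n = 4 BDL and n = 3 sham). Osmr over Lifr is 0.937 to 1.35 in BDL libraries and 0.308 to 0.496 in sham libraries, with no overlap, whereas Lifr over Il6st overlaps.

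Socs3 (ENSMUSG00000053113, chromosome 11, 117856905 to 117860898, minus strand, GRCm39) had the smallest adjusted p of the 10 genes. Its level was 62.8, 69.6, 103 and 115 CPM in BDL replicates 1 to 4, against 16.5, 19.2 and 19.1 CPM in sham replicates 1 to 3. The lowest BDL library was far above the highest sham library, and the sham libraries lay close together. Socs3 rose by 2.14 on the log2 scale (SE 0.23, adjusted p = 0.00124). The call held under all 17 alternatives, with log2 fold changes from 1.79 to 2.28, and that of Il11 held likewise, from 3.85 to 4.67.

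Levels of different genes were compared per kilobase of merged exons. In BDL libraries Socs3 was highest at 24.6 ± 7.10 CPM per kb and Il6st next at 12.5 ± 2.64 CPM per kb, followed by Osmr (5.56), Lifr (4.51), Clcf1 (2.85), Il6 (2.45), Il11 (2.17), Lif (1.58), Il6ra (1.33) and Osm (0.530), all as mean CPM per kb. The ranges of Socs3 and Il6st, of Il6st and Osmr, and of Lifr and Clcf1 did not overlap, whereas all other neighbours in that order did. In sham libraries Il6st was highest at 16.4 ± 1.79 CPM per kb, followed by Lifr (6.78), Socs3 (5.14), Osmr (3.17), Clcf1 (2.62), Il6ra (1.33), Lif (1.19), Osm (0.203), Il11 (0.0976) and Il6 (0.0944), and the ranges overlapped for Osmr and Clcf1, for Il6ra and Lif, for Osm and Il11 and for Il11 and Il6. Il6 and Il11 were thus the lowest of the 10 in sham EHBDs and lay among the other cytokines in BDL EHBDs, and with the longest transcript as the length Osmr came before Socs3 in sham libraries.

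The female and male BDL libraries separated for several genes, a split examined after the data had been seen. In 5 of the 10 genes (Il6, Il11, Il6st, Osmr and Socs3) both female BDL libraries lay above both male BDL libraries, which was the case for 19.6% of all genes, and in Lif and Clcf1 both male libraries lay above, the case for 20.2%. Socs3 averaged 109 CPM in female and 66.2 CPM in male BDL libraries, a log2 difference of 0.72 (SE 0.16) that did not pass (adjusted p = 0.543). In a fit by sex, Osmr was higher after BDL by 1.06 on the log2 scale in females (SE 0.27) and by 0.54 in males (SE 0.21), and passed in neither. Females had 1 sham library, so values for the change in females take the spread from the other libraries and assume that this library varied like them. With that limit, Socs3 was higher after BDL by 2.72 on the log2 scale in females (SE 0.22, adjusted p = 0.00778) and by 1.79 in males (SE 0.16, adjusted p = 0.00528). Il11 was 3.89 higher in females (SE 1.13, adjusted p = 0.11, not passed) and 4.61 higher in males (SE 0.93, adjusted p = 0.0275). Il6 passed in both sexes in this fit, with an adjusted p of 0.0158 in females, where the sham library was at 0 and no fold change is given, and a log2 fold change of 2.83 in males (SE 0.59, adjusted p = 0.0305). The difference between the changes in females and males did not pass for Socs3 (0.93, SE 0.25, adjusted p = 0.704), Il11 (adjusted p = 0.913) or Il6 (unadjusted p = 0.001, adjusted p = 0.704). The edgeR test of that difference called 0 of 25209 genes, with 1742 (6.91%) at an unadjusted p under 0.05.

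Other cytokines and receptors of the family that passed the test were lower after BDL. Of 6 other cytokine genes tested, 0 rose and 2 fell (median log2 fold change -0.68), with 0 higher at an unadjusted p under 0.05 and 1 higher in DESeq2. Ctf1, which encodes cardiotrophin 1, was at 3.66, 2.51, 5.30 and 6.08 CPM in BDL replicates 1 to 4, against 8.90, 11.2 and 11.2 CPM in sham replicates 1 to 3 (log2 fold change -1.40, SE 0.33, adjusted p = 0.0216). Ebi3, which encodes a subunit of interleukin-27, was at 0.361, 0.0367, 0.247 and 0.299 CPM in BDL replicates 1 to 4, against 1.001, 1.79 and 1.18 CPM in sham replicates 1 to 3. Its groups did not overlap, and it fell by 2.48 on the log2 scale (SE 0.73, adjusted p = 0.0475). The Ctf1 call was lost without BDL replicate 1 (adjusted p = 0.0855), BDL replicate 2 (0.0691), sham replicate 2 (0.0611) or sham replicate 3 (0.0663), and the Ebi3 call was lost without any single library (adjusted p from 0.0593 to 0.116).

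Of 4 other receptor genes, 0 rose and 1 fell (median log2 fold change -0.84), with 0 higher and 2 lower both at an unadjusted p under 0.05 and in DESeq2. Cntfr, which encodes the ligand-binding chain for ciliary neurotrophic factor and for the product of Clcf1, was at 1.6, 1.30, 1.98 and 2.07 CPM in BDL replicates 1 to 4, against 7.34, 11.9 and 11.2 CPM in sham replicates 1 to 3. It fell by 2.56 on the log2 scale (SE 0.32, adjusted p = 0.00214), with no overlap between groups. Il11ra1, which encodes the alpha chain that binds interleukin-11, was at 91.2 ± 10.5 CPM in BDL libraries (SD, n = 4) and 112 ± 33.1 CPM in sham libraries (SD, n = 3) and did not pass (adjusted p = 0.491). The count of lower receptors was 2 without BDL replicate 4 or without sham replicate 1, and 1 receptor was higher without sham replicate 2.

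Of 8 kinase and STAT genes, 1 rose and 2 fell (median log2 fold change -0.03). Stat3, the main STAT of the family, was at 247, 239, 255 and 302 CPM in BDL replicates 1 to 4, against 163, 138 and 141 CPM in sham replicates 1 to 3. It rose by 0.79 on the log2 scale (SE 0.16, adjusted p = 0.0133), a call lost without BDL replicate 1 (adjusted p = 0.0598). Stat5b, a STAT of growth hormone and cytokine signaling, fell by 0.62 (SE 0.15, adjusted p = 0.023), and that call was lost without BDL replicate 1, BDL replicate 2, sham replicate 2 or sham replicate 3 (adjusted p from 0.0589 to 0.0922). The kinase genes Jak1 (log2 fold change 0.36, adjusted p = 0.173) and Jak2 (0.25, adjusted p = 0.447) did not pass.

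Of 10 other inhibitors, 0 rose and 2 fell (median log2 fold change 0.03), with 2 higher and 3 lower at an unadjusted p under 0.05 and 1 higher and 3 lower in DESeq2. It was also 1 higher without sham replicate 2, without BDL replicates 2 and 3 together, with no filter and with no sex term. Cish, a member of the same inhibitor family as Socs3 that is known as a STAT5 target, was at 5.87, 6.78, 8.57 and 8.52 CPM in BDL replicates 1 to 4, against 25.0, 21.4 and 23.1 CPM in sham replicates 1 to 3. It fell by 1.71 on the log2 scale (SE 0.17, adjusted p = 0.000972), opposite in direction to Socs3. Ptpn6, a phosphatase gene of blood cells and epithelia, fell by 1.38 (SE 0.21, adjusted p = 0.00422). Socs1, another inhibitor of Janus kinases, was at 7.14 ± 2.64 CPM in BDL libraries (SD, n = 4) and 5.65 ± 3.15 CPM in sham libraries (SD, n = 3) and did not pass (adjusted p = 0.558). Markers of lymphocytes and mast cells were lower in the same comparison, unlike those of neutrophils given above, with all 7 lymphocyte markers (summed level 0.422 to 0.587 CPM in BDL libraries and 9.26 to 24.3 CPM in sham libraries, Ncr1 at 0 in every BDL library) and all 5 mast cell markers (4.64 to 11.4 CPM in BDL libraries and 54.6 to 121 CPM in sham libraries) passing the test. The part of these cells in the lower levels of Ebi3, Cish and Ptpn6 was not tested.

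Of 12 genes known to respond to STAT3, 8 rose and 0 fell (median log2 fold change 1.26). Among all genes tested, 11.8% were higher and 11% lower. The list was chosen with earlier results of these data known. Called genes named here are those with the smallest p, and each of the other calls was lost under at least 1 alternative. Il4ra, the interleukin-4 receptor alpha chain, was at 190, 184, 196 and 177 CPM in BDL replicates 1 to 4, against 50.8, 52.2 and 47.1 CPM in sham replicates 1 to 3 (log2 fold change 1.90, SE 0.15, adjusted p = 0.000553). Hif1a, the hypoxia factor gene, rose by 1.75 (SE 0.21, adjusted p = 0.0018), Myc by 1.75 (SE 0.27, adjusted p = 0.00494) and the protease inhibitor gene Timp1 by 4.35 (SE 0.41, adjusted p = 0.000869). The count of 8 was 5 without sham replicate 1 and 5 without sham replicate 2. These genes answer to other factors as well, and the activity of STAT3 was not measured.

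**Figure D4:**
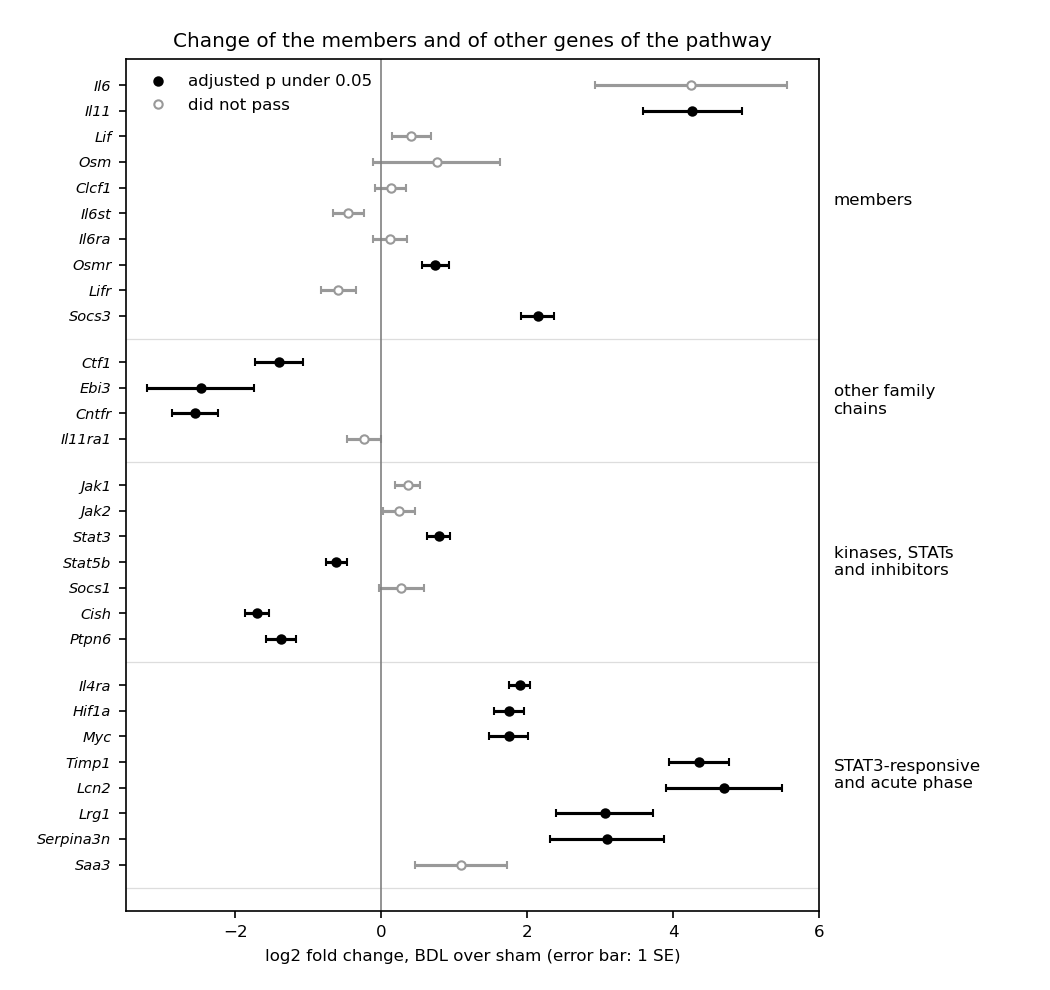
Log2 fold change of BDL over sham for the 10 genes and for named genes of the pathway, with error bars of 1 SE, filled black points for an adjusted p under 0.05 and open grey points for genes that did not pass. Socs3 at 2.14 and Stat3 at 0.79 are to the right of 0 and Cish at -1.71 and Cntfr at -2.56 to the left.

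Acute phase genes were counted by where they are made. Of 13 genes made mainly by the liver, 0 rose and 0 fell (median log2 fold change 3.85), with 0 in either direction at an unadjusted p under 0.05 and in DESeq2. In all 13 BDL replicates 1 and 4, the libraries with the most hepatocyte transcripts, lay above the other 5 libraries. In 11 of the 13, BDL replicates 2 and 3 lay below every sham library. Without BDL replicates 1 and 4 together 5 of the 13 were lower, and without BDL replicates 2 and 3 together 9 were higher, both pairs having been chosen with these shares known. The part of the hepatocyte share in these counts was not tested.

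Of 6 acute phase genes that are also made outside the liver, 3 rose and 0 fell (median log2 fold change 2.32). Lcn2, which encodes the iron-binding protein lipocalin 2, was at 522, 271, 986 and 1281 CPM in BDL replicates 1 to 4, against 9.32, 32.6 and 31.5 CPM in sham replicates 1 to 3 (log2 fold change 4.70, SE 0.80, adjusted p = 0.00692). Its call held under all 17 alternatives, with log2 fold changes from 3.63 to 5.47. The hepatocyte markers, whose shares are given above, were highest in BDL replicates 4 and 1, and their part in the level of Lcn2 was not tested. Lrg1 rose by 3.06 (SE 0.67, adjusted p = 0.017) and Serpina3n by 3.09 (SE 0.78, adjusted p = 0.0289), whereas Saa3 did not pass (log2 fold change 1.09, SE 0.63, adjusted p = 0.251). The count of 3 was 5 without BDL replicates 2 and 3 together, and without BDL replicates 1 and 4 together 1 gene, C3, was lower (log2 fold change -3.31, adjusted p = 0.00397). The count of 3 was 1 without BDL replicate 1, and single calls were lost for Lrg1 also without sham replicate 2 (adjusted p = 0.0576) and for Serpina3n also without sham replicate 1 (0.103) or sham replicate 3 (0.0978).

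The genes most like Socs3, Osmr and Il11 across the 7 libraries were sought among 9963 genes by the root mean square difference of centred log2 CPM. With BDL and sham libraries together, genes can come out as alike through a similar change after BDL alone. For Socs3 they were Itga5 (0.165), Fkbp10 (0.203), Lox (0.215), H2ax (0.221) and Basp1 (0.244), with log2 fold changes from 2.03 to 2.43. For Osmr they were Mmp2 (0.123), Haus5 (0.137), Abraxas1 (0.141), Gsdme (0.142) and Washc3 (0.149), of which Abraxas1 (adjusted p = 0.054) and Washc3 (adjusted p = 0.136) did not pass the edgeR test. For Il11 the differences were larger, at 0.87 for Ttk, 0.945 for Steap1, 0.978 for Spag5, 0.999 for Kif22 and 1.002 for Chil3. Of these, Itga5 encodes a fibronectin receptor chain, Lox an enzyme that crosslinks collagen, Mmp2 a matrix metalloproteinase and Ttk a kinase of the mitotic checkpoint. These examples are a minority of the genes listed and do not stand for the lists as a whole. Of 7 fibroblast markers, 4 rose and 1 fell, with summed levels of 5504 to 8069 CPM in BDL libraries and 3571 to 5900 CPM in sham libraries. Of the 7 cholangiocyte markers, 3 rose and 1 fell. The part of fibroblast and cholangiocyte content in the levels of Socs3, Osmr and Il11 was not tested.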

How the data were processed

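RNA of whole EHBD was made into libraries with the SMART-Seq mRNA kit, which does not mark strand. The authors trimmed reads, quantified them with Salmon on the GENCODE vM33 transcriptome (GRCm39) and collapsed transcripts into genes. The table they deposited holds estimated counts, already whole and not normalized, so no rounding was applied. A deposited sample sheet was not used. Names and coordinates came from GENCODE vM39 on the same build, which matched 55563 of 56065 identifiers, and the 502 others held 0.0335% of the counts. Every pair of libraries differed by more than sampling noise (chi-square of 202.3 or more per degree of freedom).

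Groups came from the labels. The 25209 genes whose counts summed to 10 or more entered the quasi-likelihood F test of edgeR 4.0.16 (R 4.3.3), scaled by TMM and fitted on surgery and sex, which left 4 residual degrees of freedom. Adjustment was by Benjamini-Hochberg, at a threshold of 0.05. Every adjusted p is from this test unless another tool, another setting or a left-out library is named. Those for females and males are from a separate fit by sex. The SE was obtained by dividing the size of the log2 fold change by the root of its F statistic. CPM used TMM-scaled library sizes, and likeness was measured over genes of at least 10 CPM on log2 values with 2 as prior count. The fit was tested on simulated data.

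The 10 genes and all lists were chosen with earlier results of these data known. Counts over each list stand beside 11.8% higher and 11% lower among all genes tested. Beside the 10 genes, the text names up to 4 called genes of each list by smallest p, called genes against the list's majority, 8 genes of interest (Il11ra1, Cntfr, Jak1, Jak2, Stat3, Socs1, Lcn2 and Saa3), the 5 genes most like Socs3, Osmr or Il11, and neighbouring genes. Salmon divides reads among overlapping genes. Of 11 genes that overlap 7 of the 10, 4 were tested, the highest at 0.411 CPM, at least 54.9-fold below its partner's mean. The 17 alternatives were RLE and upper quartile scaling, no filter, filterByExpr, DESeq2 1.42.0, limma-voom (limma 3.58.1), no sex term, acinar and hepatocyte markers left out, BDL replicates 1 and 4 or 2 and 3 left out together, and each library left out in turn. A fit by sex was added after seeing the data. Protein sequences were not used here, and some genes that the rule names are not reported here.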

Additional observations from a re-analysis of the deposited data

Results flagged for a closer look

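Osm in BDL replicate 4, at 3.39 CPM, lay far from the other 3 BDL libraries, the next of which was at 0.512 CPM. The gap was 0.964 of the range of the BDL libraries, above the limit of 0.829 for 4 samples. A test of this kind picks out about 1 in 20 groups by chance, and it was applied to the BDL libraries of all 10 genes, of which Osm was the only exception.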

How the results depend on the processing

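The calls of Il11 and Socs3 held under all 17 alternatives. Over the 10 genes and the alternatives, 151 results kept their direction and side of the threshold, 8 newly passed (Il6 and Lifr), 5 no longer passed (Osmr) and 6 changed direction. Osmr was also lost under upper quartile scaling (adjusted p = 0.0523), which moved the median log2 fold change of all genes to -0.129 and the share of calls that were higher to 42.8%, against 51.7%. The changes of direction were in genes that did not pass: Clcf1 (-5e-05) and Il6ra (-0.00383) under upper quartile scaling, Osm without BDL replicates 1 and 4 (-0.00295) or without sham replicate 1 (-0.123), and Il6ra without BDL replicate 3 (-0.00302) or sham replicate 1 (-0.0933). With single libraries left out, Osm ran from -0.123 to 1.18 and Il6ra from -0.0933 to 0.285.

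Of the 10 genes, 2 to 4 were called higher, and 1 was called lower in DESeq2 (Lifr) and 0 to 1 with a library left out. Over all genes, 4188 were lower in DESeq2 and 1692 without BDL replicates 2 and 3. With single libraries left out, 1678 to 3152 genes were higher and 1431 to 2883 lower, the smallest counts being without BDL replicate 1, which also leaves fewer libraries. By longest transcript Osmr took place 3 and Socs3 place 4 in sham libraries. No paired analysis was possible because the labels give no number that pairs BDL with sham libraries. At this depth, Il6, Il11 and Osm in sham libraries rest on few reads (37, 33 and 71 in all).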
